A study of Homo sapiens with 9 samples.

Results

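The probes for hsa-miR-1246, hsa-miR-3175, hsa-miR-378f and hsa-miR-494, from here on without the prefix, are 4 of the 2019 miRNA probes on the array. They were chosen by their normalized signal, which in a light extracellular RNA fraction of mast cells lay below that of the cells and below that of a dense fraction. The samples come from HMC-1, an established human line derived from a mast cell leukaemia, and no treatment is named in the labels. Total RNA was taken from the cells (cells) and from extracellular material that had settled in high (HD) or low (LD) density layers of sucrose, with 3 libraries per group and 1 library per array. Per the design text, the libraries that bear 1 number were made from 1 culture, and each culture is present in every group. All 9 libraries are of this 1 line, which limits them as a model of mast cells.

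MicroRNAs are short RNAs that a complex with an Argonaute protein uses to find target mRNAs, mainly through the seed, bases 2 to 8 of the miRNA. Cells also release RNA, in vesicles and in particles without a membrane, and such carriers can differ in density, which a sucrose gradient separates. Some entries of miRNA catalogues match stretches of other small RNAs, so a probe for such an entry can also bind fragments of those RNAs. miR-1246 is one of them, since its sequence matches a stretch of the U2 spliceosomal RNA. miR-494 comes from the imprinted miRNA cluster of chromosome 14. miR-378f belongs to the miR-378 family, whose best known member, miR-378a, lies in a gene for a regulator of energy metabolism.

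The mature sequences are printed because the families and shared stretches described below can be read from them. They were taken from RefSeq (GRCh38.p14), and all 4 members matched an entry there. The array names miR-494 without an arm, and it was matched to miR-494-3p, the name its catalogue accession is known to carry now. Capitals mark the seed.
miR-1246: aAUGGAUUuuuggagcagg
miR-3175: cGGGGAGAgaacgcagugacgu
miR-378f: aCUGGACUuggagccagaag
miR-494: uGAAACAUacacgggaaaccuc
miR-1246 lies at chr2:176601024-176601042 on the minus strand, and no other gene of the RefSeq table covers it. miR-3175 lies at chr15:92904408-92904429 on the plus strand, inside the span of CHD2, a chromatin remodeller gene. miR-378f lies at chr1:23929121-23929140 on the plus strand, with no other gene of the table over it. miR-494-3p lies at chr14:101029681-101029702 on the plus strand, inside the span of LOC124903407. Exon positions were not used here. The 4 seeds differ from each other, and those of miR-1246, miR-3175 and miR-494 are shared with 0 other mature miRNAs of the table. The seed of miR-378f is shared with 6 others. miR-378d and miR-378e, also on the array, matched no entry by name, so their seeds were not compared.

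A deposited normalized signal is a background-subtracted intensity, scaled so that the median detected probe of each array is 25. A level is thus relative to that median. Fold changes compare 1 probe between arrays, and where a probe's place among the detected probes of an array is given, it ranks signals, since probes can bind unequally. An array detected 440 to 506 miRNA probes in cells and 303 to 368 in LD. In HD an array detected between 12.6% and 16.3% of the 2019. Undetected probes were given their array's floor, the dimmest value it detected, between 9.60 and 13.5. Tests covered 334 probes, each detected by every array of some group, and the 4 members are among them. The cell label was checked with 6 miRNAs of mast and blood cells, such as miR-223-3p and miR-142-3p. All 6 were detected on all cell arrays. Of 5 epithelial miRNAs, miR-200b-3p and miR-200c-3p were detected on 2 cell arrays each and the others on 0. In HD all 6 of these blood cell miRNAs fell, as did 49.4% of all tested probes, with a median log2 change of -4.87, and 4 of them were detected on 0 HD arrays, so that their changes are limits. Of 5 miRNAs of serum, red cells and liver 2 were tested. miR-451a, of red cells, rose in HD by 2.44 ± 0.86 log2 units (SE, n = 3 per group; limma adjusted p = 0.0229), with geometric means of 27.7 in cells, 150.4 in HD and 61.1 in LD. miR-16-2-3p fell, at -1.05 ± 0.36 (limma adjusted p = 0.0207), and was detected on 0 HD arrays. Since only the cell arrays brought miR-16-2-3p into the test, its fall was favoured in advance. The part of RNA from serum in the results for the members was not tested. The arrays lie on 3 chips: all cell arrays are on 1 chip, the HD arrays and LD replicate 1 share another, and LD replicates 2 and 3 are on the third. Chip and group therefore cannot be told apart between cells and the fractions. The amount of RNA in a fraction is not given in the sources used here, so fewer carriers and less of an RNA per carrier cannot be told apart. HD replicate 3 had the highest subtracted background of the 9 arrays (182) and the lowest HD value of every member, and the part of that background in the results was not tested.

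**Figure D1:**
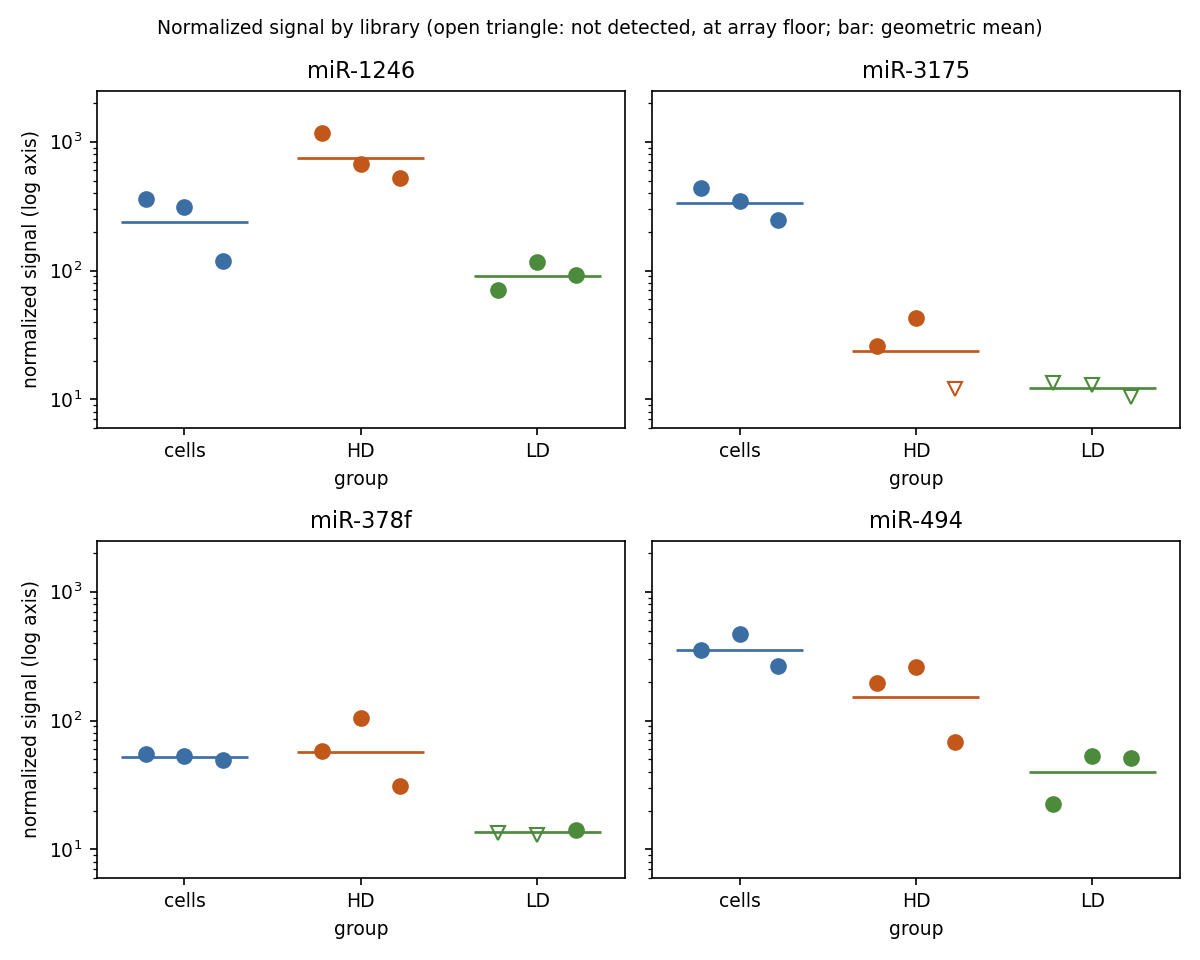
Normalized signal (log axis) of the 4 probes in each library of cells, HD and LD; filled circles were detected, open triangles were not and stand at the floor of their array, and bars are geometric means of 3 libraries. The HD libraries are the brightest for miR-1246, the cell libraries for miR-3175 and miR-494, and the cell and HD libraries overlap for miR-378f.

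miR-1246, the entry that matches U2 RNA, was brightest in the dense fraction. Its normalized signal was 359, 311 and 119 in cell replicates 1, 2 and 3, 1168, 676 and 523 in HD, and 71.0, 116 and 92.0 in LD. Every HD library was above every cell library, and every LD library was below the others, but cell replicate 3 exceeded LD replicate 2 by little. The geometric means were 237 in cells, 745 in HD and 91.2 in LD, with SDs of 0.86, 0.59 and 0.35 log2 units (n = 3 each).

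From cells to HD miR-1246 rose 3.14-fold, on the log2 scale by 1.65 ± 0.39 (SE, n = 3 per group; 95% interval 0.77 to 2.53; limma adjusted p = 0.00284). The rise was present in each culture, at 1.70, 1.12 and 2.13 log2 units. Among the detected probes of an array, it was brighter than 90.3% to 94.1% in HD, 78.0% to 91.1% in cells and 75.2% to 79.9% in LD. After scaling on the 81 probes that every array detected, the change was 0.20 and was not called (limma adjusted p = 0.657), and on spike control spots it was 4.60.

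The LD values of miR-1246 chose it, so they are given without a test. LD was lower than cells by a log2 difference of -1.38 and lower than HD by -3.03, an 8.17-fold difference. By culture the difference from cells was -2.34, -1.42 and -0.37, so culture 3 showed little of it. LD replicate 1, which shares a chip with the HD arrays, differed from the HD mean by -3.39. Scaled on spike control spots, LD of miR-1246 lay above cells, at 0.91. After quantile normalization of raw intensity, with normexp before it and in the deposited log2 table, LD minus cells shrank to -0.26, -0.33 and -0.17, and LD minus HD to -1.46, -1.75 and -1.54.

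The array holds 1 more entry listed as related to U2 RNA, miR-1290, whose match to U2 was not examined here. It overlaps miR-1246 in a run of 12 bases, bases 3 to 14 of miR-1246 and 1 to 12 of miR-1290, shown in capitals.
miR-1246: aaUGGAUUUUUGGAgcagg
miR-1290: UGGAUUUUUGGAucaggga
miR-1290 was detected on 0 cell arrays, on HD replicates 1 and 2 at 55.9 and 31.7, and on 0 LD arrays. It was not detected on all arrays of a group and was not tested. Other entries known to match small RNAs of other kinds were taken from a short list that does not cover all of them. Most of the 8 others on it that were tested were lower in HD than in cells. Of these 8, 6 fell and 1 rose, where 49.4% of all tested probes fell and 30.5% rose. Their median log2 change was -5.68 against -0.70 over all tested probes. The log2 change was -7.55 for miR-4454 and -5.904 for miR-1260b, which match tRNA sequence. The entry that rose was miR-3648, which matches a ribosomal RNA precursor, at 2.62 ± 0.50 (SE; limma adjusted p = 0.000627), and its geometric mean in LD, 745, lay above that in cells, 377.5. miR-3687 of the same list fell, at -1.18 ± 0.34 (SE; limma adjusted p = 0.00792), and was detected on 0 HD arrays. As it passed the filter for testing through the cell arrays alone, its fall was favoured in advance. miR-3676-3p, listed without its arm and so not among the 8, fell as well, at -1.33 ± 0.29 (SE; limma adjusted p = 0.00168). Entries were not compared by the kind of RNA they match. Scaled on the spike controls, 5 of the 8 fell and 3 rose, where 54 of the 334 tested probes fell and 225 rose.

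miR-3175 was bright in cells, at or somewhat above the median detected probe in the HD libraries 1 and 2, and not detected elsewhere. Its normalized signal was 436, 349 and 247 in the cell libraries. It was 25.8 and 42.8 in HD replicates 1 and 2, and it was not detected in HD replicate 3 or in any LD library. The cell libraries were far above all others, but the HD and LD libraries overlapped, because the floor of HD replicate 3 lay below those of LD replicates 1 and 2.

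From cells to HD miR-3175 fell 14.2-fold, which on the log2 scale is -3.82 ± 0.34 (SE, n = 3 per group; limma adjusted p = 2.18e-06), with HD replicate 3 at its floor. The probe passed the filter for testing through the cell arrays alone, so a fall in HD was favoured in advance. The fall was -4.08, -3.03 and -4.37 in cultures 1, 2 and 3. In the deposited table of log2 values, whose making is not stated, the change was -1.06. On the spike controls it was -0.88 and was not called (adjusted p = 0.0695). Against LD, where 0 arrays detected it, cells were at least 27.4-fold higher, which is a description since LD below cells chose the probe. LD below HD rests on HD replicates 1 and 2, at a log2 difference of -0.95 against floors. In the deposited log2 table LD minus cells was -1.27 and LD minus HD -0.21.

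**Figure D2:**
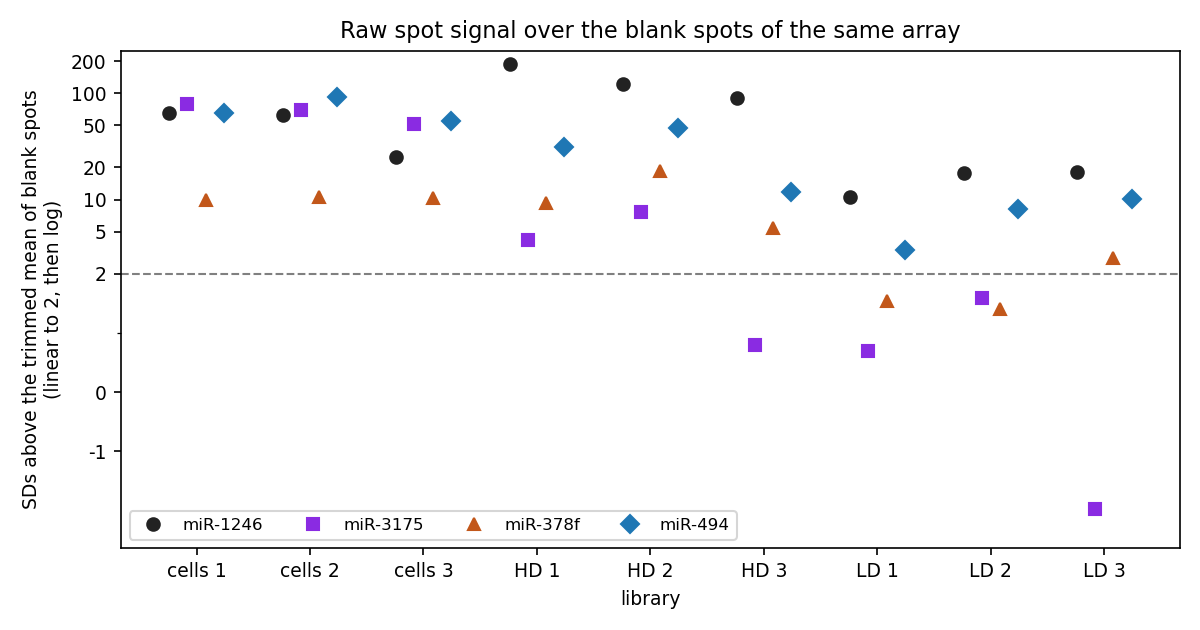
Raw spot signal of the 4 probes in each library, in SDs above the trimmed mean of the blank spots of the same array (axis linear to 2, then log); the dashed line at 2 SDs is where the deposited files start to list a value. miR-3175 lies under the line in HD replicate 3 and in all LD libraries, and miR-378f in LD replicates 1 and 2.

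The margin over background shows how firmly each level was measured. A spot had a deposited value where its raw signal was about 2 SDs above the blank spots. miR-1246 stood 10.5 to 18.2 SDs above them in LD and 90.2 to 186 in HD. miR-494 stood 3.36 to 10.1 SDs above them in LD. miR-378f reached 5.41 to 18.6 SDs in HD and only 1.40, 1.54 and 2.80 in LD, so its LD level is close to a limit rather than a measurement. miR-3175 reached 4.13, 7.68 and 0.80 SDs in HD replicates 1, 2 and 3, and -1.97 to 1.59 in LD.

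miR-378f had HD values on either side of its cell values and was near the floor in LD. Its normalized signal was 54.7, 53.1 and 49.4 in the cell libraries, 58.1, 104 and 31.2 in HD, and 14.02 in LD replicate 3, with LD replicates 1 and 2 not detected. The cell libraries lay within the range of the HD libraries, and every LD library was below both groups. The geometric means were 52.3 in cells and 57.3 in HD, with SDs of 0.08 and 0.87 log2 units (n = 3 each).

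The difference between HD and cells was 0.13 ± 0.37 log2 units (SE, n = 3 per group; 95% interval -0.69 to 0.95; limma adjusted p = 0.747), so changes within that interval could not be told from 0. By culture it was 0.09, 0.97 and -0.66. It turned with the scaling, to -1.32 on the 81 probes that every array detected and to 3.07 on the spike controls, both called. It was called also after quantile normalization of the raw intensities (0.29, adjusted p = 0.00621) and in the deposited log2 table (0.28, adjusted p = 0.0109). LD differed from cells by -1.95 and from HD by -2.09 log2 units, which chose the probe. The first of these was 0.34 when scaled on the spike controls. By quantile normalization, by normexp and in the authors' log2 table it was -0.16, -0.26 and -0.16, and LD minus HD was -0.44, -0.69 and -0.44.

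**Figure D3:**
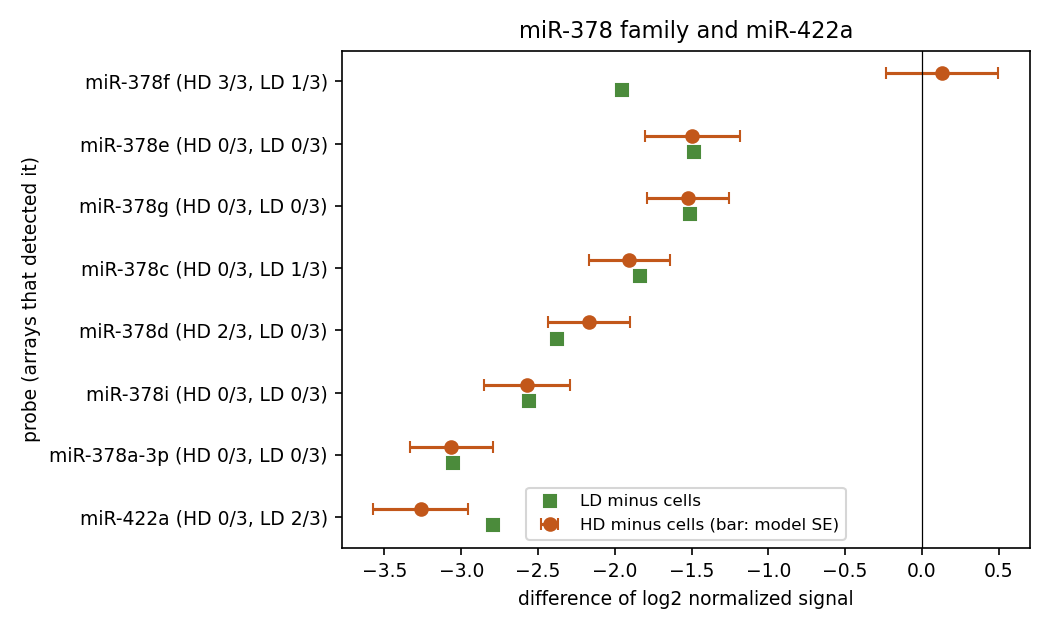
Difference of log2 normalized signal from cells for the 8 tested probes of the miR-378 family and miR-422a: circles are HD minus cells with the SE of the model, squares are LD minus cells, and labels give the number of 3 arrays that detected each probe. In HD the other 7 lie between -3.26 and -1.50, and miR-378f lies at 0.13.

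The other tested miR-378 entries of the array were lower in HD than in cells. The sequences of close relatives are shown for comparison, with the seed in capitals.
miR-378f: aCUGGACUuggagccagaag
miR-378a-3p: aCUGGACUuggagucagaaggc
miR-378c: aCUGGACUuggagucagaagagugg
miR-378i: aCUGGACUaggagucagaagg
miR-422a: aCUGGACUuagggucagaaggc
Counted from the 5′ end of miR-378f, the first 13 bases are the same in miR-378a-3p and miR-378c, and within the length of miR-378f the only difference from either is C14U. miR-378i differs by U9A and C14U, and miR-422a by G10A, A12G and C14U. Probes for such close relatives can bind each other's RNA, which the deposited files do not allow to be measured.

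miR-378a-3p, the main member of the family, had a normalized signal of 124, 104 and 80.8 in the cell libraries and was detected on 0 HD and 0 LD arrays. Its log2 change in HD, taken to the floor, was -3.07 ± 0.27 (SE, n = 3 per group; limma adjusted p = 1.99e-06). miR-422a had 140.8, 125 and 89.2 in cells, was detected on 0 HD arrays and stood at 17.2 and 20.3 in LD replicates 2 and 3. Of the 7 tested relatives 7 fell in HD, with a median of -2.17, where 49.4% of all tested probes fell and the median was -0.70. Of these 7, 6 were detected on 0 HD arrays. All 7 passed the filter for testing through the cell arrays alone, so a fall in HD was favoured in advance. The untested miR-378a-5p, miR-378b and miR-378j were each detected on 1 cell array and 0 HD arrays. miR-378d was detected in HD replicates 1 and 2, at 15.97 and 14.8. The same 7 probes had no called rise after quantile normalization, normexp or in the deposited log2 table, with medians of -0.22, -0.39 and -0.22, and 7 falls in each. Scaled on the spike controls 0 fell and 3 rose, where 54 of all 334 tested probes fell and 225 rose. Without scaling 4 fell, as did 111 of the 334. The difference between miR-378f and its relatives was not tested.

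miR-494, of the chromosome 14 cluster, declined in order from cells to HD to LD. Its normalized signal was 354, 467 and 263 in cells, 196, 260 and 67.7 in HD, and 22.6, 53.3 and 51.1 in LD. All 9 libraries detected it. The lowest cell library and the highest HD library differed by little, and every LD library lay below every HD library. The geometric means were 352, 151 and 39.5, with SDs of 0.41, 1.02 and 0.70 log2 units (n = 3 each).

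From cells to HD the log2 change of miR-494 was -1.22 ± 0.45 (SE, n = 3 per group; 95% interval -2.21 to -0.23; limma adjusted p = 0.0271), a 2.33-fold fall seen in each culture, at -0.85, -0.84 and -1.96. That call did not hold with any 1 of the cell libraries left out (-1.11 without the first, -1.32 without the second and -1.23 without the third), nor without HD replicate 3 (-0.65), culture 2 (-1.41) or culture 3 (-0.85). It also did not hold without scaling (-1.02), and on the spike controls the sign turned (1.72). After quantile normalization of the raw intensities it was -0.36, with normexp before that -0.46, and in the deposited log2 table -0.28, all called. With chip as a random block beside the culture it was -0.85 (limma adjusted p = 0.345). LD differed from cells by -3.16 and from HD by -1.94 log2 units, as the choice of the probe required. By culture the difference from HD was -3.11, -2.29 and -0.41. In the deposited log2 table the differences were -0.86 from cells and -0.58 from HD.

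The rest of the chromosome 14 cluster gave little that could be tested. Of all 2019 miRNA probes, 1152 were detected on some array and 334 were tested. The array holds 79 of its entries, 43 of them detected on some array, and 2 were tested. Besides miR-494 that was miR-369-5p, detected on 0 cell arrays, 0 HD arrays and 3 LD arrays, with a change in HD of 0.24 ± 0.26 log2 units between floors (SE; limma adjusted p = 0.410).

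**Figure D4:**
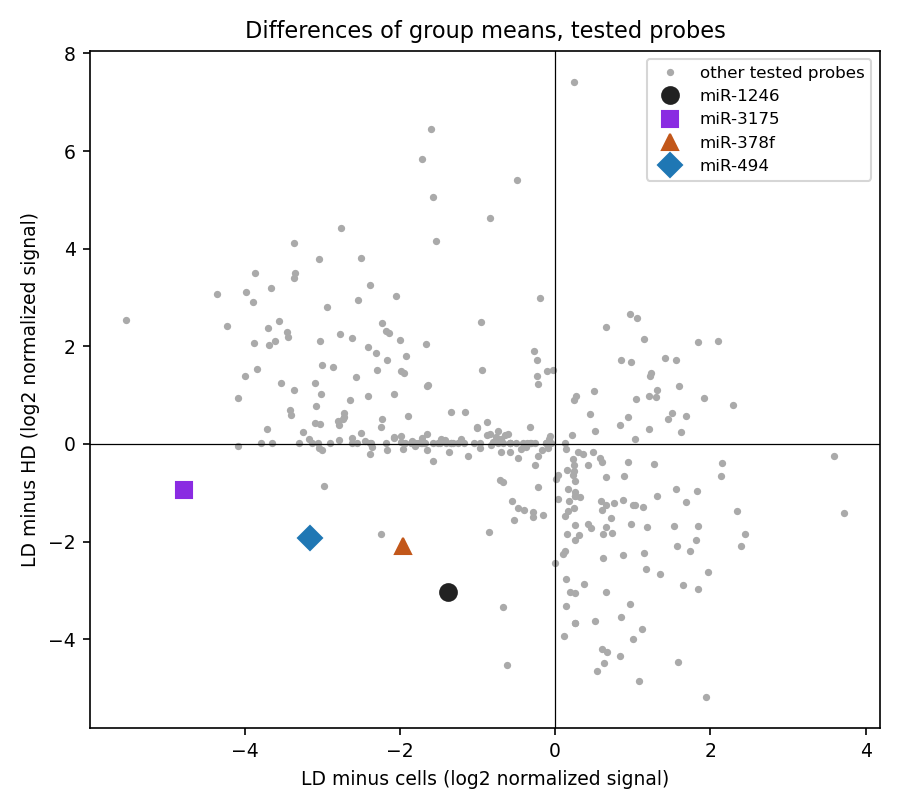
Differences of group means of log2 normalized signal for the 334 tested probes, LD minus cells on the horizontal and LD minus HD on the vertical axis; grey points are other probes. The 4 members lie at the lower left, where LD is the lowest group.

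LD was the group least often lowest. It had the lowest of the 3 means for 42 of 334 tested probes (12.6%), HD for 176 and cells for 116. Ranked by the smaller of its differences from cells and HD, the order was miR-378f (1.95), miR-494 (1.94), miR-125a-3p (1.84), miR-1246 (1.38) and miR-3175 (0.95). miR-125a-3p is not among the members. Just outside stood miR-24-3p (0.86) and miR-5088 (0.85). These are the values that chose the members, and nothing is read from them.

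Every LD array was below every cell and HD array for 5 probes (1.5%), among them miR-1246, miR-378f and miR-494 but not miR-3175. In the deposited log2 table this held for 8 probes (2.4%), among them miR-378f and miR-494. There miR-1246 was 7.26 in cell replicate 3 against 7.53, 7.60 and 7.43 in LD.

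The members did not move alike between cells and HD. Their choice did not use this contrast directly, but it used the same cell and HD values, so the test is not independent of it. Of the 4, 3 passed the test in that contrast, where 79.9% of tested probes did. Among these 3, miR-3175 entered the test through the cell arrays alone, which favoured its fall in advance. miR-1246 rose, as did 30.5% of tested probes, and miR-3175 and miR-494 fell, as did 49.4%. The shares of members are close to these backgrounds. Relative to the median change of all tested probes, -0.70, miR-1246 lay 2.36 log2 units higher, miR-378f 0.83 higher, miR-494 at -0.52 and miR-3175 at -3.12. These distances were the same without scaling and under both other scalings, by construction, while the median itself moved to -0.51, -2.16 and 2.24.

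**Figure D5:**
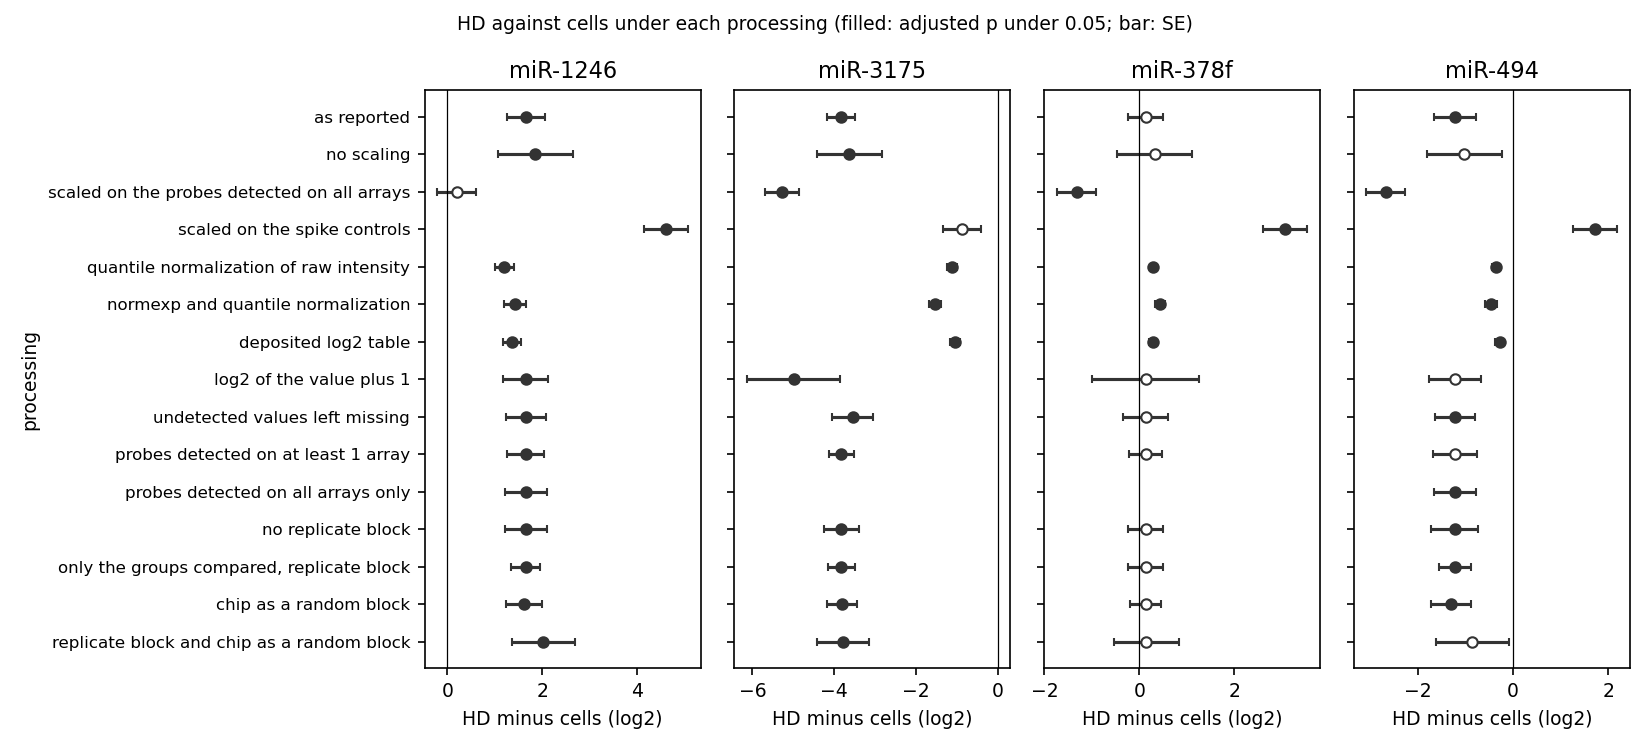
HD minus cells (log2) of the 4 probes under each processing; points are estimates, bars are SEs, and filled points have a limma adjusted p under 0.05. miR-3175 is below 0 and miR-1246 above 0 under all settings shown, miR-378f turns when scaled on the probes that every array detected, and miR-494 turns when scaled on the spike controls.

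Over the 9 arrays, log2 signals of the members correlated with each other at 0.17 to 0.88 (Pearson). These are descriptions over libraries of 3 groups that share floors and scaling. The highest was between miR-378f and miR-494, and the lowest between miR-1246 and miR-3175. The probes most like each member were also found by this measure. For miR-1246 they were miR-3154 (0.92), miR-5088 (0.91) and miR-1343 (0.88), all brightest in HD and detected on 1 LD array each. For miR-3175 they were miR-378d (0.98), miR-320c (0.98) and miR-320a (0.96), which were at 55.0 to 123 in cells and at 13.3 to 16.7 in HD. For miR-378f they were miR-125a-3p (0.94), miR-1233-1-5p (0.83) and miR-3154 (0.80). For miR-494 they were miR-125a-3p (0.93), miR-24-3p (0.92) and miR-193b-3p (0.82).

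The members were also set beside other tested miRNAs for features of sequence. Their lengths ran from 19 to 22 bases and their GC shares were 42.1% (miR-1246), 45.5% (miR-494), 55.0% (miR-378f) and 63.6% (miR-3175), with a median of 59.1% over the 278 tested probes that matched an entry. The letters GGAG, a motif described in miRNAs that human T cells export in vesicles, occur on the RNA strand of 3 of the 4 and are shown in capitals.
miR-1246: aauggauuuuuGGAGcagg
miR-3175: cggGGAGagaacgcagugacgu
miR-378f: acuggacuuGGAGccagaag
In miR-3175 the motif overlaps the seed. GGAG occurs in 25.2% of the 278 and in 15.7% of the 2370 human mature miRNAs of the table, and it is also in miR-378a-3p, miR-378c and miR-378i, which were not detected in HD. CCCU and GGCU, other short motifs searched on that strand, occur in 0 members and in 6.83% and 19.4% of the 278. A match is a description of these letters and was not tested.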

How the data were processed

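RNA was labelled with Hy5 and hybridised to 1-colour arrays, per the labels' protocols; scanner and software: not given in the sources used here. Per the file headers, the authors deposited a raw, a background-subtracted and a globally normalized intensity. In these files 1 background value per array, close to the mean of blank spots without the highest and lowest 5%, had been subtracted, and spots below it plus about 2 SDs (2.00 to 2.09) were empty. The authors also deposited a table of log2 values that correlated with log2 raw intensity at 0.986 to 0.998 and whose making is not stated. Here, log2 of the normalized intensity was used, 25 values marked NG were left out, and undetected values were set to the array floor. Tests used limma 3.58.1 in R 4.3.3 (group plus culture as a block, all 9 libraries, 4 residual and 6.05 prior degrees of freedom), two-sided, with Benjamini-Hochberg adjustment over 334 probes, after a check on simulated data. The number of arrays limits the precision.

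The design text pairs the libraries by culture. The array values show no pairing, as the deviations from the group means of 2 libraries of 1 culture correlated weakly: over 9 such pairs the correlation ran from -0.28 to 0.21, with 1 pair over 0.1. Named probes are the members, the tested probes of their lists (miR-378 family, U2-related, chromosome 14 cluster), the 3 most correlated probes per member and the next in order. The members and lists were chosen with earlier results of these data known. Sequences were matched by name. Figures used matplotlib 3.10.9 in Python 3.11.15.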

Additional observations from a re-analysis of the deposited data

How the results depend on the processing

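Of 267 called probes between HD and cells (102 higher, 165 lower), leaving out a library or a culture gave 227 to 274, with 85 to 108 higher. Scaled on the 81 probes that every array detected, 55 were higher and 220 lower, and on the spike controls 225 and 54. With undetected values left missing 140 were called, 63 of them lower, and over the probes detected on all arrays 58, of which 50 were higher and 8 lower, with fewer probes tested. The member calls, 3, stayed at 2 to 4.

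Without the replicate block the changes in HD were the same and miR-494 kept its call (limma adjusted p = 0.0375), as did miR-1246 and miR-3175; the block changed no other call of a member. miR-1246 was not called when scaled on the 81 probes (0.20), nor miR-3175 on the spike controls (-0.88). miR-378f was called at -1.32 and 3.07 under those scalings, at 0.29 by quantile normalization, at 0.43 by normexp and at 0.28 in the authors' log2 table. It ran from -0.30 to 0.56 without a library or culture and was negative without cell replicate 2 (-0.06), HD replicate 2 (-0.30) or culture 2 (-0.29). miR-494 ran from -1.60 to -0.65 and lost its call without scaling (-1.02), with log2 of the value plus 1 (-1.21), over probes detected on at least 1 array (-1.22) and with chip as a random block beside the culture (-0.85), an alternative added after seeing the data. On the spike controls it was 1.72, and LD minus cells was 0.91 for miR-1246 and 0.34 for miR-378f. Which scaling suits samples of unlike RNA amount was not tested. LD minus HD was below 0 for each member in every setting that gave a value, and LD minus cells in every one but the spike scaling. The members were chosen by these signs on the same arrays, so nothing is read from their persistence. Over the 81 probes alone miR-3175 and miR-378f have no value, and with undetected values missing miR-3175 has none in LD. Probes at the floor, such as miR-3175 in LD, have a limit only.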

Other observations

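miR-125a-3p and miR-423-5p were, besides members, the probes whose LD arrays lay below every cell and HD array. miR-125a-3p, the lesser known arm of a hairpin whose other arm is abundant in blood cells, had geometric means of 71.2 in cells, 53.8 in HD and 15.0 in LD, and 2 LD arrays detected it. Between HD and cells it did not pass the test (-0.41 ± 0.32 log2 units, SE, n = 3 per group; limma adjusted p = 0.265). miR-423-5p was at 21.1 in cells, 133.8 in HD and 13.2 in LD, and it rose in HD by 2.67 ± 0.36 (limma adjusted p = 5.32e-05). The smaller of its LD differences, 0.68, was below that of each member (0.95 to 1.95).

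Over the tested probes with a sequence, the 70 that hold GGAG had a median HD minus cells difference of 1.25 and a median LD minus HD difference of -1.25 log2 units. The 208 without it had -1.35 and 0.10. The median GC share was 65.2% in the first and 54.5% in the second, and the part of GC share in this difference was not tested. For CCCU the median HD minus cells difference was -1.05 with the motif and -0.66 without it, and for GGCU -0.33 and -0.72. The median LD minus HD difference was 0.01 with and without CCCU, and 0.16 with and 0.01 without GGCU. Median GC shares with these motifs were 63.6% (CCCU) and 68.3% (GGCU). No motif was tested.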
